A study of Mus musculus with 6 samples.

Results

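The genes described here encode the proteins of the cytosolic ribosome. They were chosen by symbol alone: Rpl or Rps followed by a number, with at most 1 further letter a, l or x, together with Rplp0, Rplp1, Rplp2, Rpsa and Fau, and without pseudogene symbols, which carry -ps. The rule found 82 of the 41388 genes in the table. Of these, 43 belong to the large subunit, 31 to the small subunit and 3 to the stalk of the large subunit, and 5 (Rpl3l, Rpl10l, Rpl39l, Rps4l and Rps27l) are diverged or tissue-restricted copies, called paralogs below. The annotation lists Rps4l as a transcribed processed pseudogene, although its symbol met the rule.

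The data are RNA sequencing counts from the lungs of adult mice with and without the start of the Zpbp2 gene, and the question was how the lung transcriptome differs between them. There were 3 libraries from C57BL/6J control mice (WT1 to WT3) and 3 from Zpbp2 KO mice (KO1 to KO3), all collected at ZT7, that is 7 h after lights on. KO mice carry a germ-line deletion that removes the first exons of Zpbp2 together with part of its promoter, on a C57BL/6J background, and the WT mice came from the same colony. Both genotypes were kept with equal light and dark periods and free access to food. The deletion is in every cell, so the comparison is not restricted to 1 lung cell type, and in whole lung more cells of a type and more RNA per cell cannot be told apart.

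A ribosome has a small subunit, which reads the mRNA, and a large subunit, which joins the amino acids, and each holds ribosomal RNA and 1 copy of most of these proteins. The stalk proteins recruit the translation factors that use GTP. Most ribosomal protein mRNAs are short and abundant, and many begin with a 5′ terminal oligopyrimidine (TOP) tract, a C followed by a run of C and T, through which mTOR signalling controls their translation. These genes also have many processed pseudogenes, so their reads can match several places in the genome.

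Total counts were 59134950 to 71354388 per library, and 23070 to 23711 genes had a read. Zpbp2 itself had 20, 15 and 7 counts in WT1 to WT3 and 1, 0 and 0 in KO1 to KO3, as labelled. KO2 and KO3 differed by little more than counting noise. Their median variance over genes was 1.71 times the counting variance at 20 to 200 counts, where WT1 and WT2 stood at 1.86, and the other pairs of a genotype at 2.36 to 3.84. From 200 to 20000 counts it was 1.77 to 1.93, and above that 3.32, against at least 3.69 and at least 32.4 in the other pairs. They were therefore counted as 1 sample (WT, n = 3, and KO, n = 2), and the fit with all 6 libraries apart is given beside it. Over the members with at least 200 counts in a pair this ratio was higher, at 4.39 for KO2 and KO3 against 6.49 to 24.95 for the other pairs. The markers of lung were present in all libraries, with 6 of 6 measured and a summed level of 45112 to 72991 CPM. CPM is the count divided by the TMM-scaled library size, in parts per 1e6.

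The cytosolic ribosomal protein genes were higher in KO lungs as a group. They took 0.652%, 0.639% and 0.642% of the counts in WT1 to WT3 and 0.834%, 0.788% and 0.775% in KO1 to KO3, so every KO library was above every WT library. The share was 0.644% ± 0.00634 (SD, n = 3) in WT and 0.808% ± 0.0367 (SD, n = 2) in KO, a difference of 0.163 percentage points or 1.25-fold. In edgeR's quasi-likelihood fit, 79 of the 80 tested members had a log2 fold change above 0, against 52.2% of all 18660 tested genes. The median of the members was 0.40, and the median of all tested genes was 0.02. The remaining members, Rpl10l with 0 counts in all libraries and Rpl39l with 0 to 5, were not tested.

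At an adjusted p of at most 0.05, 19 of the 80 tested members were called higher in KO, where 1.38% of all tested genes were, and 0 were called lower, where 0.906% of all tested genes were. At an unadjusted p of at most 0.05 the members numbered 56, or 70.0%, against 27.3% of all tested genes. With the 6 libraries apart, 49 members were called higher and 0 lower, and the background was 9.81% higher and 9.07% lower. DESeq2 on the 5 samples called 52 members higher and 0 lower, and the background was 10.6% higher and 10.4% lower. For 65 tested members every KO library lay above every WT library, which held for 20.1% of all tested genes, and for 0 members every KO library lay below, which held for 20.7%.

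These calls lay close to the threshold, with adjusted p-values from edgeR between 0.0446 and 0.0497. No member was called when WT1, WT2, WT3, KO1, or KO2 and KO3 together were left out, although 49 to 53 members then still had an unadjusted p of at most 0.05 and 76 to 80 of 80 a log2 fold change above 0. With KO2 and KO3 as 1 sample, the fits without KO1 and without KO2 and KO3 left 1 KO sample, which was assumed to vary like the WT samples. The direction of the group was therefore the same in each of these fits, and the number of called members was not.

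The shift was similar in the KO libraries. Relative to the mean of WT1 to WT3 on the log2 scale, the median member stood at 0.39 in KO1, 0.37 in KO2 and 0.35 in KO3, and at 0.00, -0.03 and 0.00 in WT1 to WT3. In KO1 to KO3, 78, 78 and 77 of the 80 tested members lay above the WT mean, against 44, 32 and 40 in WT1 to WT3. The median of all tested genes stayed within 0.01 of 0 in every library.

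**Figure D1:**
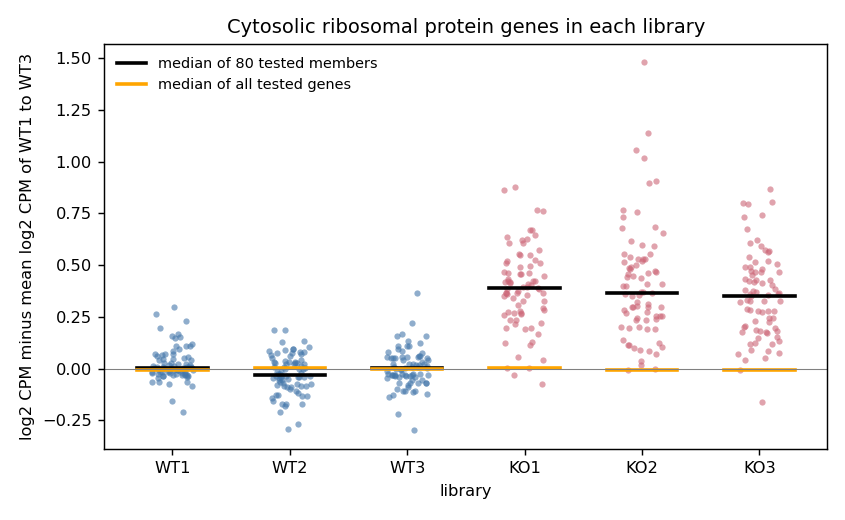
Level of each tested member except Rpl3l (79 points per library) as log2 CPM minus the mean log2 CPM of WT1 to WT3, by library. Black lines mark the median of the 80 tested members and orange lines that of all tested genes: the member medians are 0.39, 0.37 and 0.35 in KO1 to KO3 and between -0.03 and 0.00 in WT.

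The TOP tract is the sequence these mRNAs are best known to share. Of the 82 members, 61 had a gene start in the RefSeq table of the GRCm38.p6 assembly. A tract directly at the start, that is a C as the first transcribed base followed by at least 4 bases of C or T on the strand of the gene, was found in 14 of these 61 members. Counted by start, it stood at 14 of 73 member starts (19.2%), against 2.51% of the 32851 starts of all genes in that table. A C-led run of at least 5 C or T anywhere within 15 bases of the start was found at 60.3% of member starts and 36.4% of all starts. The windows below run from 15 bases before to 15 bases from the start, so that base 16 is the first transcribed base, and capitals mark C-led runs of at least 5 C or T. The first 5 are called members with a tract at the start.
Rps10, chr17:27635230-27635259, minus strand: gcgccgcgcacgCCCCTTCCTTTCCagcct
Rps18, chr17:33955651-33955680, minus strand: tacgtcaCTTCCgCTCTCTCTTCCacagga
Rps21, chr2:180257364-180257393, plus strand: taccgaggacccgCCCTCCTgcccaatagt
Rplp2, chr7:141447636-141447665, plus strand: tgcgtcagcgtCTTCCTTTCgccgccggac
Rpl14, chr9:120571502-120571531, plus strand: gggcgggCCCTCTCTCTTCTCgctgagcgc

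The next 3 are called members whose RefSeq start has no such run within the window, shown because Rps25 and Rpl41 were among the members with the largest called differences.
Rps25, chr9:44407699-44407728, plus strand: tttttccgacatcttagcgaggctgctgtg
Rpl41, chr10:128549154-128549183, minus strand: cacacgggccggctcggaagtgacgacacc
Rpl26, chr11:68901551-68901580, plus strand: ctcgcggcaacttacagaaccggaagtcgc

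The last 3 are members with a tract at the start that were not called.
Rps6, chr4:86857353-86857382, minus strand: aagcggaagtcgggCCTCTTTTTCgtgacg
Fau, chr19:6057932-6057961, plus strand: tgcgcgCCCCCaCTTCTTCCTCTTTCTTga
Rps27, chr3:90213634-90213663, minus strand: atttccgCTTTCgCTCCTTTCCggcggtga

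A tract at the start occurred among called and uncalled members. It was found in 5 of the 16 called members with a start in the table (31.2%) and in 9 of the 43 tested members that were not called (20.9%). The median log2 fold change was 0.46 over the 14 tested members with a tract at the start and 0.42 over the 45 without. Annotated starts can lie some bases from the starts used in lung, so a missing run says only that these letters are absent from this window.

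The stalk proteins Rplp1 and Rplp2, which carry the flexible tips that bind the translation GTPases, rose together. Rplp1 (chromosome 9, 61913284 to 61914542) had 342, 335 and 347 CPM in WT1 to WT3 and 501, 495 and 480 CPM in KO1 to KO3, with no overlap between genotypes. Its log2 fold change was 0.54 (SE 0.05, edgeR adjusted p = 0.0446, n = 3 and n = 2). Rplp2 (chromosome 7, 141447370 to 141451585) had 111, 104 and 105 CPM in WT and 170, 148 and 144 CPM in KO, again without overlap. Its log2 fold change was 0.57 (SE 0.08, edgeR adjusted p = 0.0465). Rplp0, the base of the stalk, had 270, 259 and 296 CPM in WT and 364, 297 and 301 CPM in KO. KO1 stood apart in this gene, and KO2 and KO3 lay only just above WT3. The log2 fold change of Rplp0 was 0.27 (SE 0.11) and did not pass the test (edgeR adjusted p = 0.180).

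Among the 31 small subunit genes, 10 were called higher in the 5-sample fit, 24 with the 6 libraries apart, and 27 had every KO library above every WT library. Over all tested genes these shares were 1.38%, 9.81% and 20.1%. Their log2 fold changes ran from 0.12 for Rps4x to 1.02 for Rps7, with a median of 0.45. The largest called difference of all members was in Rps25, a protein of the head of the small subunit used by some viral internal ribosome entry sites. Rps25 (chromosome 9, 44407139 to 44410427) had 7.71, 6.79 and 6.45 CPM in WT1 to WT3 and 12.8, 14.5 and 10.6 CPM in KO1 to KO3. Every KO library was above every WT library, and the log2 fold change was 0.87 (SE 0.11, edgeR adjusted p = 0.0446). In counts, KO2 and KO3 differed for this gene (902 and 622). Exons of other genes, Ccdc84 and Trappc4 on the other strand, overlap 24.8% of its exonic bases, so part of its counts could belong to them if counting ignored the strand.

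Rps21 (chromosome 2, 180257377 to 180258445) had 88.9, 84.2 and 84.1 CPM in WT and 130, 129 and 119 CPM in KO, and the log2 fold change was 0.57 (SE 0.05, edgeR adjusted p = 0.0446). Rps26, which contacts the mRNA upstream of the start codon, had 57.5, 55.9 and 61.9 CPM in WT and 89.98, 84.2 and 80.7 CPM in KO, and rose by 0.57 on the log2 scale (SE 0.07, edgeR adjusted p = 0.0446). Rps10, whose exons overlap those of other genes over 28.7% of their bases, had 51.5, 50.1 and 48.1 CPM in WT and 73.1, 68.9 and 66.4 CPM in KO. It rose by 0.50 on the log2 scale (SE 0.06, edgeR adjusted p = 0.0446). In none of these genes did the genotypes overlap.

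Rps14 (chromosome 18, 60747098 to 60778546), known for its deletion in human 5q- syndrome, had nearly the same level in all WT libraries. It had 209, 208 and 208 CPM in WT and 287, 298 and 297 CPM in KO, with a log2 fold change of 0.49 (SE 0.05, edgeR adjusted p = 0.0446). Of the other called small subunit genes, Rps9, Rps15, Rps18 and Rps19 had log2 fold changes between 0.42 and 0.47. Rps19, the gene most often mutated in Diamond-Blackfan anaemia, had 107, 108 and 107 CPM in WT and 147, 147 and 151 CPM in KO.

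Some of the largest differences were in small subunit genes with few counts, which did not pass the test in the 5-sample fit. Rps7, which binds the p53 regulator Mdm2 when free of the ribosome, was counted 162, 136 and 135 times in WT and 229, 374 and 229 times in KO, which is 2.21, 1.94 and 2.25 CPM against 3.64, 6.02 and 3.92 CPM. KO2 was far above KO3 in this gene. The log2 fold change of Rps7 was 1.02 (SE 0.19, edgeR adjusted p = 0.0576), and with the 6 libraries apart it was 1.09 (edgeR adjusted p = 0.0220). Rps27 had only 18 to 27 counts in WT and 35 to 49 in KO, with a log2 fold change of 0.93 (SE 0.24, edgeR adjusted p = 0.0917, or 0.0308 with the 6 libraries apart). Rpsa, the laminin receptor precursor of the small subunit, had 3.64, 3.43 and 3.75 CPM in WT and 6.59, 5.07 and 5.58 CPM in KO. Its log2 fold change was 0.73 (SE 0.14, edgeR adjusted p = 0.0593, or 0.0194 with the 6 libraries apart). None of these 3 genes had overlapping genotypes.

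The small subunit genes that encode fusion proteins or signalling targets were measured at low levels. Fau, which encodes the small subunit protein Rps30 joined to a ubiquitin-like protein, had 1.41, 0.997 and 1.12 CPM in WT and 1.84, 2.40 and 1.71 CPM in KO. The difference was 0.74 on the log2 scale (SE 0.21, edgeR adjusted p = 0.106, or 0.0475 with the 6 libraries apart). Rps27a, which encodes ubiquitin joined to a ribosomal protein, had 4.87, 4.23 and 4.82 CPM in WT and 5.31, 6.81 and 7.0 CPM in KO, with a log2 fold change of 0.40 (SE 0.16, edgeR adjusted p = 0.196). Rps6, the substrate of the S6 kinases, had 1.67, 1.40 and 1.72 CPM in WT and 1.91, 3.01 and 1.80 CPM in KO. Here KO1 and KO3 lay just above the WT libraries and KO2 well above, with 187 counts against 105 in KO3, and the log2 fold change of 0.45 (SE 0.19) did not pass the test (edgeR adjusted p = 0.215).

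Among the 43 large subunit genes, 7 were called higher (Rpl13a, Rpl14, Rpl22, Rpl26, Rpl37, Rpl37a and Rpl41), 22 with the 6 libraries apart, and 33 had every KO library above every WT library, against the same 1.38%, 9.81% and 20.1% of all tested genes. Their log2 fold changes ran from -0.05 for Rpl23a to 0.76 for Rpl36, with a median of 0.33. Rpl41 (chromosome 10, 128548114 to 128549305), which encodes the smallest ribosomal protein, had 58.5, 54.6 and 60.2 CPM in WT and 84.4, 90.9 and 86.0 CPM in KO. The genotypes were far apart, with a log2 fold change of 0.59 (SE 0.06, edgeR adjusted p = 0.0446). Rpl13a (chromosome 7, 45125558 to 45128761), which also silences some inflammatory mRNAs once released from the ribosome, had 388, 392 and 377 CPM in WT and 549, 542 and 520 CPM in KO. The log2 fold change was 0.49 (SE 0.05, edgeR adjusted p = 0.0446). Other genes overlap 35.4% of its exonic bases, all on the same strand. The called differences of the other 5 large subunit genes were 0.37 to 0.45 on the log2 scale, and Rpl22 was at 158 CPM in all WT libraries and at 206, 204 and 199 CPM in KO1 to KO3.

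Rpl5 and Rpl11, which form the 5S RNA particle that restrains Mdm2 in ribosomal stress, gave different values. Rpl11 had 4.78, 5.15 and 5.08 CPM in WT and 6.40, 8.49 and 8.73 CPM in KO. All KO libraries were above WT, with KO1 the lowest of them, and the log2 fold change was 0.59 (SE 0.16, edgeR adjusted p = 0.0984, or 0.0258 with the 6 libraries apart). Rpl5 had 14.7, 16.4 and 14.1 CPM in WT and 16.5, 16.0 and 17.1 CPM in KO, so the genotypes overlapped. Its log2 fold change was 0.14 (SE 0.09, edgeR adjusted p = 0.401), and the difference between both genes was not tested. Rpl36 had 3.32, 2.79 and 2.42 CPM in WT and 4.83, 5.28 and 4.19 CPM in KO. Its log2 fold change of 0.76 (SE 0.17) did not pass the test in the 5-sample fit (edgeR adjusted p = 0.0739) and passed it with the 6 libraries apart (edgeR adjusted p = 0.0258).

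At the low end of the group, 5 members differed little between genotypes. Rpl10 had 13.2, 13.6 and 12.2 CPM in WT and 13.0, 14.0 and 13.7 CPM in KO, with a log2 fold change of 0.05 (SE 0.09, edgeR adjusted p = 0.762). Rpl23a had 1.01, 0.797 and 0.917 CPM in WT and 0.858, 0.983 and 0.804 CPM in KO, with a log2 fold change of -0.05 (SE 0.19, edgeR adjusted p = 0.903). The genotypes were mixed in both genes. Rpl21 (0.09), Rps4x (0.12) and Rpl27 (0.13) followed, with edgeR adjusted p-values of 0.692, 0.385 and 0.659. Rps4x, the X-linked copy, was at 86.2 CPM in KO1 only and at 73.6 and 73.5 CPM in KO2 and KO3, within the WT range of 72.1 to 75.5 CPM. Signs of Rpl10, Rpl21, Rpl23a, Rpl27 and Rps4x changed under other settings, given in the closing section.

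**Figure D2:**
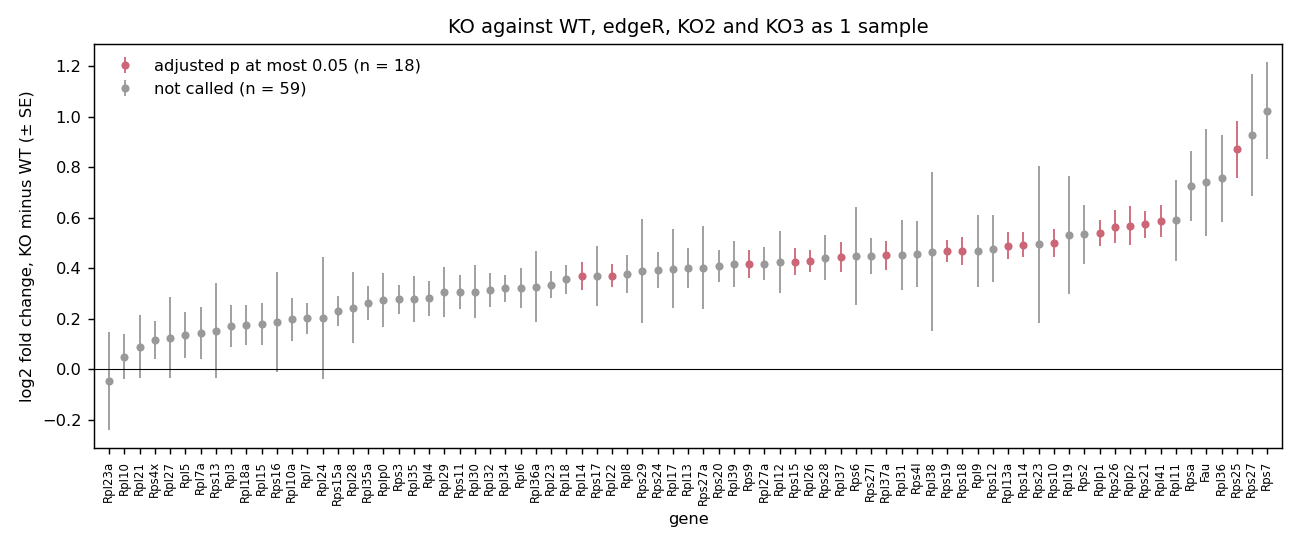
Log2 fold change of KO against WT with its SE for 77 of the 80 tested members, ordered by size (Rpl3l, with an SE of 1.41, and 2 members not reported here by name are left out). Red points are 18 of the called members and grey points are members not called: 76 of the 77 lie above 0, and the largest values, for Rps7 and Rps27, have wide bars and were not called.

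**Figure D3:**
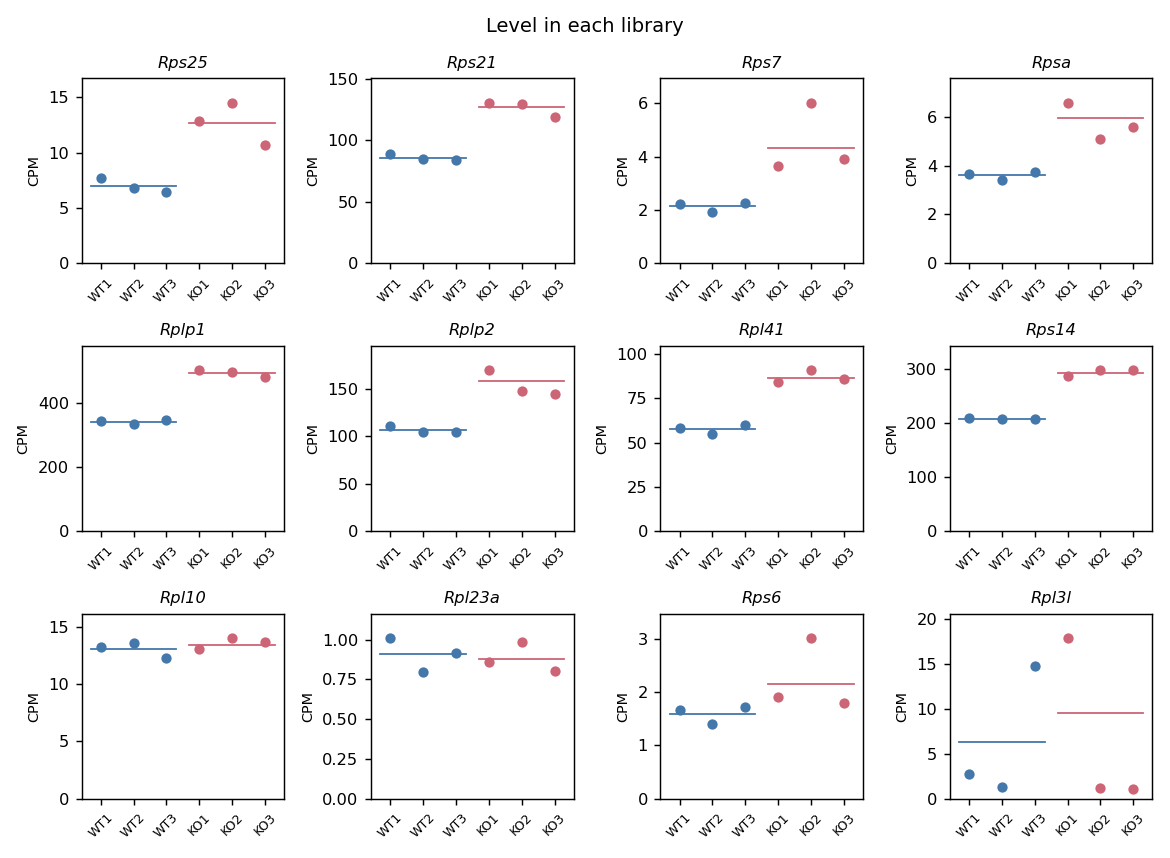
CPM in each library for 12 members, with each axis starting at 0. Lines mark the WT mean and the KO mean, in which KO2 and KO3 count as 1 sample: genotypes are apart in Rps25, Rps21, Rplp1, Rplp2, Rpl41 and Rps14, mixed in Rpl10 and Rpl23a, and Rpl3l is high only in WT3 and KO1.

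The paralogs behaved differently from each other. Rpl3l, which replaces Rpl3 in muscle, was high in 1 library of each genotype, with 2.77, 1.31 and 14.7 CPM in WT1 to WT3 and 17.8, 1.18 and 1.08 CPM in KO1 to KO3. The same libraries were high in 7 squamous epithelium markers, which summed to 4684 CPM in WT3, to 8974 CPM in KO1 and to 3.82 to 5.34 CPM elsewhere. The part of such tissue in the level of Rpl3l was not tested. The log2 fold change of Rpl3l was 0.59 (SE 1.41, edgeR adjusted p = 0.823), and its spread within a genotype was larger than the difference between genotypes. Rps27l, a target of p53, had 24.0, 24.1 and 25.1 CPM in WT and 31.4, 35.07 and 34.99 CPM in KO, without overlap. Its log2 fold change was 0.45 (SE 0.07, edgeR adjusted p = 0.0506, or 0.00803 with the 6 libraries apart). Rps4l had 22.1, 21.2 and 24.9 CPM in WT and 35.1, 27.9 and 26.6 CPM in KO, with a log2 fold change of 0.46 (SE 0.13, edgeR adjusted p = 0.106). Rpl39l, a copy used in the testis, was counted 0, 3 and 3 times in WT and 5, 4 and 4 times in KO, close to the floor of 3 counts, and Rpl10l, another testis copy, had 0 counts in each library, which allows at most 0.0409 to 0.0513 CPM.

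The level at which these genes were counted was very uneven, although their proteins are needed in nearly equal amounts. Per kb of the main transcript, the 77 members without the paralogs ranged from 0.628 CPM in Rps23 to 835 CPM in Rplp1, a 1330-fold range, with a median of 27.8 CPM per kb. Among the highest were Rplp1, Rpl8, Rps15 and Rps9, at 835, 680, 550 and 450 CPM per kb. Rpl8 had 513, 491 and 525 CPM in WT and 704, 621 and 617 CPM in KO, with a log2 fold change of 0.38 (SE 0.08, edgeR adjusted p = 0.0623). It lay higher in all KO libraries and narrowly missed the threshold, which it passed with the 6 libraries apart (edgeR adjusted p = 0.0196). Rps15 and Rps9 were called, with log2 fold changes of 0.43 and 0.42 (SE 0.05 each, edgeR adjusted p = 0.0446 for both). Rps15 had 240, 230 and 239 CPM in WT and 325, 314 and 303 CPM in KO, and Rps9 had 294, 287 and 294 CPM in WT and 402, 385 and 366 CPM in KO.

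Counted level went with the share of the transcript that other annotated genes repeat. For each member, the share of 100-base stretches of its main transcript that also occur exactly in a transcript of another gene was computed from the annotation. Rpl8 had a share of 1.73% and Rplp1 of 30%, while Rps27, at 1.43 CPM per kb, had a share of 98.4% and Rpl10, at 16.7 CPM per kb, of 91.6%. Over the 77 members Spearman's rho between level and share was -0.64 for 100-base and -0.52 for 50-base stretches. The members share the libraries and many of the copies, so these are descriptions. Rps23, Rps16 and Rpl19 were low at shares of 44.99%, 33.9% and 61.0%. Copies that are not in the transcript annotation were not counted, and how the authors treated reads with several alignments is not given in the sources used here. Spearman's rho of the log2 fold change was -0.06 with the share of 50-base stretches and 0.03 with the level in CPM per kb. Of the 30 members with under 50% of 50-base stretches shared, 12 were called and the median log2 fold change was 0.39. Of the 47 with 50% or more, 7 were called and the median was 0.40. The median SE was 0.07 in the first of these groups and 0.11 in the second, and 1.38% of all tested genes were called higher.

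**Figure D4:**
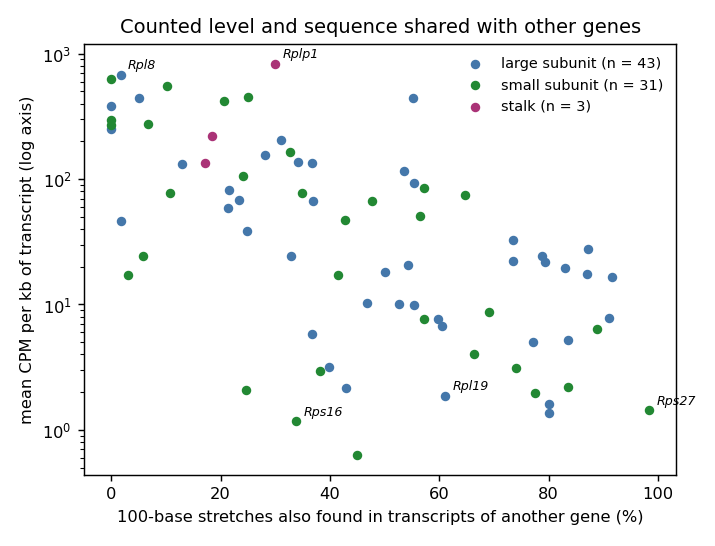
Mean CPM per kb of main transcript over the 6 libraries (log axis) against the percentage of 100-base stretches of that transcript found in transcripts of other genes, for 77 members coloured by role. Levels fall from left to right: Rpl8 is at 680 CPM per kb with 1.73% shared and Rps27 at 1.43 CPM per kb with 98.4% shared.

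Most called members had many counts. The count classes here leave out the paralogs. Of the 24 with a mean count under 500, 0 were called by edgeR's 5-sample fit, 8 were called with the 6 libraries apart, and the median log2 fold change was 0.43 with a median SE of 0.18. Of the 17 with a mean count of 500 to below 2500, 2 were called, with a median of 0.32 and a median SE of 0.09. Of the 36 with a mean count of 2500 or more, 17 were called and 35 had no overlap between genotypes, with a median of 0.39 and a median SE of 0.06. Among the tested genes that are not members, 0.115%, 1.61% and 2.33% were called higher in these 3 count classes, 3.3% of the lowest class were called higher with the 6 libraries apart, and 24.9% of the highest class had every KO library above every WT library. Of the 45 members whose exons overlap no other gene, 43 were tested, 13 were called and the median log2 fold change was 0.43. In the 11 with more than 20% of exonic bases overlapped, 3 were called and the median was 0.31, and 1.38% of all tested genes were called higher.

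Ribosomal protein transcripts are short, and short genes of other kinds also tended to be higher in KO in these libraries. Over all 18524 tested genes with an annotated length, Spearman's rho between the log2 fold change and exonic length was -0.33. Among protein-coding genes with a main transcript of over 500 and up to 1000 bases, 44 members had a median log2 fold change of 0.42 and 1022 others had one of 0.26. In that class 97.7% of members and 79.7% of the others lay above 0, and 29.5% of members and 6.95% of the others were called higher. At over 1000 and up to 2000 bases the medians were 0.32 for 17 members and 0.15 for 3756 others, and at up to 500 bases they were 0.44 for 15 members and 0.20 for 105 others. The median of the 4458 other genes longer than 4000 bases was -0.13. In each of the 3 classes with at least 15 members, the median of the members was above that of the other genes.

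When each library was first adjusted for exonic length and GC content across all genes, 77 of the 80 tested members remained above 0. Their median was 0.33 against 0.07 for all tested genes. No member was then called by edgeR (lowest adjusted p = 0.0565), 50 had an unadjusted p of at most 0.05, and of all genes 0 were called and 4639 had such an unadjusted p. The call of each of the 19 members was therefore lost with this adjustment. Main transcript length in its place was an alternative chosen after seeing the data. With it, 76 members lay above 0, the median was 0.29 against 0.08 for all tested genes, and 0 members were called. The adjusted medians of other lists below used exonic length. The cause of the length trend was not tested.

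**Figure D5:**
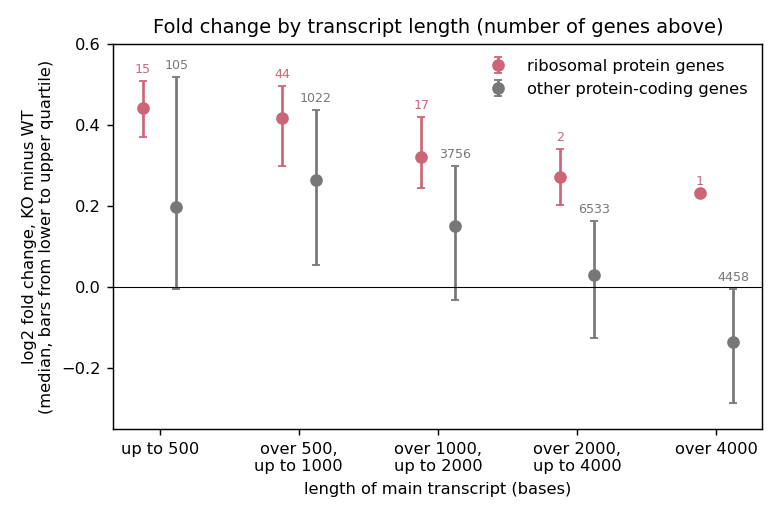
Median log2 fold change of KO against WT by length of the main transcript, for members (red) and other protein-coding genes (grey), with bars from the lower to the upper quartile and the number of genes above. From the class of over 500 bases on, both medians fall with length, and members lie above the others in every class, at 0.42 against 0.26 for over 500 and up to 1000 bases. The class of over 2000 and up to 4000 bases holds only 2 members and that of over 4000 bases only 1.

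Markers of other cell types also differed between these lungs, and their part in the ribosomal protein difference was not tested. The 7 adipocyte markers summed to 619 to 1018 CPM in WT and 99.6 to 282 CPM in KO, all 7 lower in each KO library than in each WT library. The 6 cardiomyocyte markers summed to 2148 to 6177 CPM in WT and 1035 to 1211 CPM in KO, all 6 without overlap. The 5 erythroid markers summed to 2394 to 5512 CPM in WT, 3966 CPM in KO1 and 18966 and 19699 CPM in KO2 and KO3. The 5 hepatocyte markers summed to 1.07 to 1.44 CPM in WT, 4.42 CPM in KO1 and 38.3 and 38.4 CPM in KO2 and KO3. Of the 6 lung markers, 4 were called higher in KO. The 4 B cell markers summed to 187 to 212 CPM in WT and 163 to 172 CPM in KO, the 4 T cell markers to 17.2 to 24.0 and 25.1 to 27.6 CPM, and the 3 measured macrophage markers to 174 to 245 and 175 to 197 CPM. No measured marker of these lists was at or under 3 counts in every library. Without WT3 and KO1, the libraries with squamous markers, 28 members were called higher and 0 lower, where the background was 6.01% higher and 5.88% lower. With fewer libraries, 73 of the 80 tested members and 35.3% of all tested genes had every KO library above every WT library, and the median log2 fold change of the members was 0.36. That fit compared 1 KO sample with WT1 and WT2, so its spread came from these WT libraries alone and the KO sample was assumed to vary like them.

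Other genes of translation were compared from fixed lists, whose counts stand against the shares of all tested genes given above for the 5-sample fit (1.38% higher and 0.906% lower), the 6 libraries apart (9.81% and 9.07%) and no overlap between genotypes (20.1% and 20.7%). The 6 ribosomal genes of the table that the symbol rule leaves out (among them Rps3a1, Rpl22l1, Rpl36al, Rpl7l1 and Gnb2l1, the older symbol of Rack1) all had log2 fold changes above 0, with a median of 0.26, and 5 had no overlap between genotypes. None of the 6 was called by edgeR in the 5-sample fit, and 2 were called with the 6 libraries apart. Gnb2l1 had 535, 531 and 565 CPM in WT and 675, 605 and 593 CPM in KO, with a log2 fold change of 0.23 (SE 0.07, edgeR adjusted p = 0.125).

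Of 12 genes listed for elongation and termination, 1 was called higher and 0 lower, with a median log2 fold change of 0.23. The called gene was Tpt1, a TOP mRNA that encodes a growth-related partner of elongation factors rather than a factor. Tpt1 had 32.1, 33.8 and 32.0 CPM in WT and 60.5, 80.8 and 56.8 CPM in KO, with a log2 fold change of 0.995 (SE 0.08, edgeR adjusted p = 0.0446), larger than that of all but 1 ribosomal protein gene. Eef1a1, which brings aminoacyl-tRNA to the ribosome, had a log2 fold change of 0.18 (SE 0.07, edgeR adjusted p = 0.199), and Eef2, which moves the ribosome along, had one of 0.08 (SE 0.09, edgeR adjusted p = 0.625). Over 23 other genes with TOP mRNAs, which include Tpt1 and both factors, 1 was called higher and 0 lower, all 23 lay above 0, and the median was 0.22.

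Of 35 initiation factor genes, 1 was called higher and 0 lower, and the median was 0.15. The called gene Eif1, which guards start codon choice, had 144, 140 and 144 CPM in WT and 202, 190 and 171 CPM in KO, with a log2 fold change of 0.43 (SE 0.06, edgeR adjusted p = 0.0474). Of 37 ribosome biogenesis genes, 1 was called higher and 0 lower, with a median of 0.14. Mrto4, an assembly factor that holds the place of Rplp0 on the maturing large subunit, was the called gene, with a log2 fold change of 0.49 (SE 0.07, edgeR adjusted p = 0.0496). Nucleolin (Ncl) was at 0.14 (SE 0.05, edgeR adjusted p = 0.155). With the 6 libraries apart, 3 of 12 elongation, 9 of 23 other TOP, 7 of 35 initiation and 9 of 37 biogenesis genes were called higher, and 0 lower. The median main transcripts of these 4 lists were 1714 to 2424 bases long. With the length and GC adjustment their medians were 0.23 for elongation, 0.25 for the other TOP genes, 0.22 for initiation and 0.18 for biogenesis, against 0.33 for the ribosomal protein genes.

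Of 14 genes of mTOR signalling to the ribosome, 0 were called higher and 1 lower, with a median of -0.10. With the 6 libraries apart, 0 were called higher and 4 lower, and 2 had every KO library above and 6 every KO library below every WT library. Mtor, the kinase itself, had 78.1, 81.2 and 77.7 CPM in WT and 59.6, 62.4 and 61.6 CPM in KO, and its log2 fold change was -0.37 (SE 0.05, edgeR adjusted p = 0.0446). The median main transcript of this list was 5658 bases long, and its median with the length and GC adjustment was 0.05. Of 12 p53 and ribosomal stress genes, 2 were called higher and 0 lower, with a median of 0.02. The called genes were Bbc3, with a log2 fold change of 0.50, and Bax, with 0.47, which promote apoptosis, while the p53 targets Cdkn1a (0.46, SE 0.40) and Mdm2 (0.02, SE 0.07) were not called.

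Nuclear genes for mitochondrial ribosomal proteins and for oxidative phosphorylation, which are also short, gave a comparison. Of 77 mitochondrial ribosomal protein genes, 3 were called higher (Mrpl14, Mrpl52 and Mrpl54, at 0.47 to 0.55) and 0 lower, 44 had every KO library above and 4 every KO library below every WT library, and the median was 0.18. With the 6 libraries apart, 27 were called higher and 1 lower. Of 79 tested oxidative phosphorylation genes, 2 were called higher (Ndufa2 and Ndufa7) and 0 lower, and the median was 0.04. With the 6 libraries apart, 9 were called higher and 7 lower, and 16 had every KO library above and 8 every KO library below every WT library. As shares of the 79, the 9, 7 and 16 genes were near the background of 9.81%, 9.07% and 20.1% of all tested genes. The 8 genes with every KO library below were a smaller share than the 20.7% of all tested genes. The median main transcript was 1252 bases long in the first list and 809 bases in the second, and with the length and GC adjustment their medians were 0.10 and -0.05. Of 236 ribosomal protein pseudogenes in the table, only 32 had enough counts to be tested. None of these was called by edgeR, 2 of 27 were with the 6 libraries apart, 26 of 32 lay above 0 and the median was 0.42, or 0.31 with the length and GC adjustment. Reads from the members can be counted in these copies and the reverse, so they are not independent of the members.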

How the data were processed

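Lung RNA from 3 WT and 3 KO mice (Trizol and column purification) was sequenced. The deposited table holds raw counts, whole numbers of reads per gene. Per the submitters' processing notes and the study's methods, the authors trimmed reads (Trimmomatic 0.36), aligned them to GRCm38 with STAR 2.5.3a within GenPipes, used Picard 2.9.0 and counted reads with HTSeq 0.6.0. Library selection, strand use and treatment of multiply aligned reads are not given in the sources used here. Per the study's methods each library came from 1 mouse.

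Counts were tested in R 4.3.3 with edgeR 4.0.16: filterByExpr, TMM scaling, glmQLFit and glmQLFTest, two-sided, Benjamini-Hochberg adjustment over all tested genes, called at 0.05. KO2 and KO3 were summed because they differed by little more than counting noise, a choice made after the data were examined. A fit with the 6 libraries apart was run as well. SEs were derived from the estimate and F. KO means average KO1 with the mean of KO2 and KO3. DESeq2 1.42.0, other scalings and filters, a length and GC offset (natural splines with 5 df) and left-out libraries were alternatives. The script was tested on simulated data. GENCODE M21 gave positions, lengths and exon overlaps and held 97.5% of the gene identifiers. RefSeq (GRCm38.p6) gave the start sequences. The members and all lists were chosen with earlier results of these data known. Intervals and floors cover counting error only. Genes were named by rule: up to 10 called members with the largest change, the 5 highest, 5 lowest and 5 most abundant per kb, the paralogs and members with particular roles, while other called members were named after their values were seen. Values of some genes are not reported here.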

Additional observations from a re-analysis of the deposited data

How the results depend on the processing

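The median log2 fold change of the members (0.40) stayed above 0 in all fits. It was 0.35 with library size alone, 0.33 with the exonic length and GC offset, 0.29 with main transcript length instead (an alternative chosen after seeing the data), and 0.35 to 0.41 when libraries were left out. The median of all genes was 0.02 in the reported fit and moved to -0.04, 0.07 and 0.08 in the first 3. The 19 called members became 49 with 6 libraries apart, 52 with DESeq2, 0 with either length and GC offset, and 0 to 28 with libraries left out (17 without KO2 and 17 without KO3). The 426 called genes became 3402 with 6 libraries apart, 3908 with DESeq2, 937 with at least 10 counts in every library, 0 and 4 with the offsets, and 0 to 2256 with libraries left out (2256 without WT3 and KO1, 17 without KO1). Unadjusted p-values of at most 0.05 then numbered 3346 to 5370. Of all called genes 60.3% were higher in KO, and 38.2% with library size alone. With the 6 libraries apart, the replicate block lowered the calls from 49 to 24 members and from 3402 to 1157 genes. Equal numbers did not pair the mice (correlations of deviations -0.49, 0.58 and -0.67). The member share differed by 0.136 to 0.189 percentage points with libraries left out (0.137 without KO1, 0.189 without KO2 and KO3, 0.136 without WT3 and KO1). Every KO library was above every WT library for 60 members and 15.4% of all genes with library size alone, and for 66 to 73 members and 22.4% to 38% of all genes with libraries left out.

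Signs turned in 14 of 544 checks of 32 named members. Rpl3l was -0.30 with the replicate block and -2.47 (without KO1) to 2.21 (without WT3) with libraries left out, and -0.86 without WT3 and KO1. Rpl10 was -0.0051 with library size alone, -0.018 and -0.053 with the offsets and -0.0029 (without KO2 and KO3) to 0.087 with libraries left out. Rpl27 was -0.0044 and -0.018 with the offsets and Rpl21 was -0.053 with the second. Rpl23a was -0.14 to 0.041 with libraries left out (above 0 without WT1 or KO3), and Rps4x -0.027 to 0.22 (below 0 without KO1, with or without WT3). The cause was not tested. Of the other checks, 416 kept direction and side of the threshold, 89 lost the call and 25 gained it. Without the paralogs, the 24 members under a mean of 500 counts had a median SE of 0.18, the largest of the 3 count classes.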
